A study of Mus musculus with 24 samples.

Results

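Genes whose response to M1 activation differed between macrophages with and without the glucose transporter GLUT1 were described over 16 arrays, as the difference of differences (KO M1 minus KO M0) minus (WT M1 minus WT M0), here called the interaction. These 16 arrays were taken from the 24 of the series by their group labels, and no measured value entered the choice. They held 4 biological replicates of each of 4 groups of mouse bone marrow derived macrophages, grown from marrow for 6 days in 20 ng/ml M-CSF. KO cells came from LysMCre x Slc2a1 fl/fl mice, in which Cre removes the floxed Slc2a1 gene in myeloid cells, and WT cells came from controls labelled as WT or Slc2a1 fl/fl, with no statement on whether the controls carry Cre. M0 cells were left untreated and M1 cells received 5 ng/ml LPS and 10 ng/ml IFNγ for 24 h. The other 8 arrays held IL-4 treated (M2) cells of both genotypes and were used in 1 comparison only.

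GLUT1, encoded by Slc2a1, carries glucose across the plasma membrane. LPS acts through Toll-like receptor 4 and NF-kB, IFNγ acts through its receptor and JAK kinases, and together they turn macrophages to a state with inflammatory cytokines, nitric oxide production, high glycolysis and little cell division. The unfolded protein response raises chaperones and degradation factors of the endoplasmic reticulum through ATF6, IRE1 with XBP1, and PERK, and the kinase PERK shares its target ATF4 with sensors of amino acid shortage.

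Values are log2 signals of a probe relative to the 75th percentile of its array, so a value of 0 is the level of that percentile and a step of 1 is a doubling. A gene was called when the limma adjusted p (Benjamini-Hochberg over all 25449 genes tested) was under 0.05. Errors of the interaction are standard errors from the same fit, with 4 arrays per group. In cultures of many cells, fewer cells that express a gene and less RNA per cell cannot be told apart.

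The 75th percentile lay between 1504 and 2924 intensity units on the 16 arrays and was lowest on the KO M1 arrays, at 1504 to 1705 against 1810 to 2364 on WT M1 arrays. The arrays lay on 3 slides and fell into 4 sets of all groups by their position. In 3 of the sets each group sat at the same position on every slide, so position and group cannot be told apart there. The fourth set (M0 replicate 2 and M1 replicate 3 of both genotypes) stood apart: Xist was well above background on 4 of its 4 arrays and on 2 of the 12 others, while Uty, Ddx3y and Eif2s3y, all Y-linked, passed that mark on 0 of 4 against 12 of 12. The M0 arrays of this set lay on slide 1 and its M1 arrays on slide 2, so slide and M1 activation cannot be told apart within it. Counts without this set are given beside some of the main ones. A gene was read from its brightest probe, and where another of its probes gave a clearly different value this is said beside the result. The brighter probe of Lyz2, the gene into which LysMCre is inserted, read 7.58 to 8.09 on the 8 WT arrays and 4.14 to 6.33 on the 8 KO arrays, without overlap.

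The interaction was called for 7596 of 25449 genes (29.8%). Of these 3857 genes (15.2% of all tested) had the higher value in the KO response and 3739 (14.7%) the lower. A size of at least 2-fold was reached by 4612 called genes and of at least 4-fold by 1100. Higher responses made up 50.8% of the calls, 42.1% after quantile normalization, 36.7% after scaling to the array median and 65.0% with no filter on dim probes, so the balance of the directions depends on the scaling and the filter. The median interaction of all genes was 0.11, and -0.03 and -0.08 under the first 2 of those settings. Without the fourth set 9513 genes were called, and 7021 of the 7546 called genes still tested kept their call and sign.

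Calls between the genotypes were many in activated cells and few in untreated ones. In M0 the genotypes differed in 14 genes (0.0550% of those tested, with 730 at an unadjusted p under 0.05), whereas in M1 they differed in 11445 (45.0%). Of the genes called in the interaction, 98.5% were also called between KO M1 and WT M1, 10 genes were called between KO M0 and WT M0, and 108 in neither comparison. These comparisons share the M1 and M0 arrays with the interaction. A comparison without M0 arrays, the genotype difference in M1 minus that in M2, called 7707 genes (30.3%), and 6755 of the 7596 interaction genes (88.9%) were called there with the same sign, the M1 arrays being shared.

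Both genotypes responded to M1 activation, with 12380 genes called in WT (48.6%; 6745 rises and 5635 falls) and 14727 in KO (57.9%; 8610 rises and 6117 falls). Of 8278 genes called in both with the same sign, 5938 (71.7%) were not called in the interaction. Across genes the 2 responses had a Pearson r of 0.75 and a Spearman rho of 0.61, where genes are not independent replicates. Among genes called in WT, the median size of the response was 1.0 in WT and 0.97 in KO. The called genes lay on both sides of this relation.

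**Figure D1:**
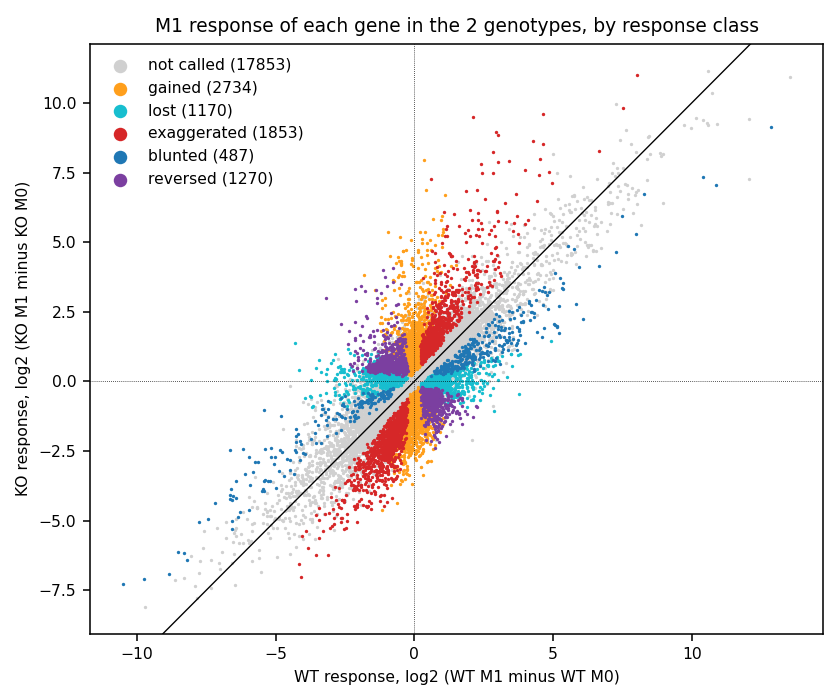
Each point is 1 of the tested genes, with its WT response on the x axis and its KO response on the y axis, both in log2 units (M1 minus M0), coloured by response class with the number of genes in brackets (82 called genes with neither response called are not drawn). Points on the diagonal responded alike; reversed genes fill the upper left and lower right areas, and exaggerated genes lie beyond the diagonal on the KO side.

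Called genes were put into response classes by whether each genotype's own response was called and in which direction. A gained response was called in KO and not in WT (2734 genes, 1362 rises and 1372 falls). An exaggerated response was called in both with the same sign and larger in KO (1853 genes, 911 rises and 942 falls). A reversed response was called in both with opposite signs (1270 genes). A lost response was called in WT only (1170 genes, 647 rises and 523 falls), and a blunted one in both but smaller in KO (487 genes, 305 rises and 182 falls). Larger or added responses in KO (gained and exaggerated) thus outnumbered smaller or missing ones (lost and blunted). The other 82 called genes had neither response called. Membership of a class rests on thresholds, and without the fourth set the classes held 3040 gained, 2166 exaggerated, 1683 reversed, 1568 lost and 923 blunted genes.

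The share of genes called lay between 23.5% and 40.1% over classes of response size. Taking the mean of the WT and KO responses, 30.9% of the 514 genes that rose by at least 3 log2 units on average were called (159 genes), 52 of them with the larger rise in WT and the others with the larger rise in KO. Of the 2232 genes with a mean rise of 1 to 2 units, 33.8% were called, 563 larger in KO and 192 larger in WT. Falls were uneven: of the 2241 genes with a mean fall of 1 to 2 units, 759 called genes fell further in KO and 139 fell further in WT, whereas among the 468 genes with a mean fall of at least 3 units the counts were 57 and 62.

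Among reversed responses the largest interaction of a named gene was that of Derl3. Derl3, a factor that draws misfolded proteins out of the endoplasmic reticulum, read -1.25, -1.11, -0.37 and -1.06 on WT M0 arrays, against -1.09, -1.22, -1.41 and -0.99 on KO M0 arrays. M1 values were -3.51, -4.57, -4.11 and -4.29 in WT and 2.31, 1.17, 1.55 and 2.19 in KO. The M0 groups overlapped, while all KO M1 arrays were above every other array and all WT M1 arrays were below. The fall of 3.17 in WT and rise of 2.98 in KO gave an interaction of 6.15 ± 0.39 (SE; adjusted p = 7.7e-07, limma), which was 5.66 to 6.78 within the 4 sets. The probe lies at chr10:75358606-75358665 of mm9, from base 1255 of its transcript.

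The other reversed genes with a fall in WT included Mgll, a lipase of monoacylglycerols (5.36 ± 0.56), Rragd, a small GTPase of the nutrient-sensing Rag complex on the lysosome (5.00 ± 0.35), the zinc finger gene Hivep3 (4.84 ± 0.35) and Arfgef3 (4.28 ± 0.64). The probes of Hivep3 disagreed: a second one rose in both genotypes, by 2.17 in WT and 4.80 in KO, the others gave interactions of 1.26 and 0.55, and the mean of the probes gave 2.32, so its reversal rests on the probe used. Rragd read 0.95, 1.2, 1.59 and 2.15 in WT M0, 1.01, 1.04, 1.57 and 1.49 in KO M0, -0.44, 0.12, -0.62 and -0.28 in WT M1 and 4.18, 4.71, 4.69 and 4.44 in KO M1. The KO M1 arrays again stood above all others and WT M1 below. Reversal in the other direction, a rise in WT and a fall in KO, was led by the fatty acid binding protein gene Fabp7 (-3.40 ± 0.67), Prr15 (-3.13 ± 0.50), the histone H3 gene Hist2h3c2 (-3.11 ± 0.22) and the adenosine receptor gene Adora3 (-3.09 ± 0.63). Hist2h3c1 (-2.91 ± 0.29) is a near copy of Hist2h3c2, and their probes may read both. Fabp7 in M1 read 1.97, 2.44, 3.21 and 2.29 in WT and -2.36, -1.15, 0.24 and -1.0 in KO, without overlap.

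Exaggerated rises reached the largest interaction of the named genes. Rasd2, a small G protein of the Ras family, read -3.83, -4.29, -3.81 and -3.66 on WT M0 arrays, against -3.60, -3.81, -3.86 and -3.85 on KO M0 arrays. M1 values were -3.43, -3.05, -2.72 and -4.01 in WT and 3.17, 3.61, 3.80 and 3.32 in KO. The rise was 0.59 in WT and 7.26 in KO, an interaction of 6.66 ± 0.33 (adjusted p = 1.3e-07, limma) that corresponds to a 101-fold difference. Only the KO M1 group stood apart, with no overlap with the other 3 groups.

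Kif1a, a kinesin motor of vesicle transport, rose by 3.00 in WT and 8.86 in KO, with M1 values of -1.61, -1.36, -2.33 and -1.64 in WT and 4.66, 4.72, 4.56 and 4.55 in KO. The other large exaggerated rises were Unc93a (5.42 ± 0.39), the pantetheinase gene Vnn3 (5.03 ± 1.19) and Plcxd2 (5.00 ± 0.52). Exaggerated falls were led by the ion channel gene Calhm2 (-3.40 ± 0.35), the myeloid receptor gene Cd300lb (-3.38 ± 0.29), the calcium channel regulator gene Cracr2b (-2.96 ± 0.31), the glycosyltransferase gene Gcnt1 (-2.83 ± 0.42) and the receptor phosphatase gene Ptpro (-2.81 ± 0.26). Other probes of some of these genes did not follow. A second probe of Unc93a gave -0.34 and 1 of Gcnt1 gave 0.38, and the other probes of Cracr2b gave -1.89, 0.09 and 0.01. The mean of the probes gave 2.54 for Unc93a, -1.23 for Gcnt1 and -1.40 for Cracr2b, all still called. Cd300lb read 2.36, 2.66, 3.16 and 2.2 in WT M1 and -1.03, -0.75, -0.67 and -1.23 in KO M1, from 3.29 to 3.96 in the M0 arrays of both genotypes.

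Gained rises were led by Slco4a1, an organic anion transporter (5.37 ± 1.02), Gem, a GTPase that inhibits calcium channels (5.16 ± 0.50), Dcbld2 (5.16 ± 0.65), Rapgef3, the cyclic AMP sensor EPAC1 (4.92 ± 0.55), and Grasp (4.86 ± 0.58). The other probes of Slco4a1, above background on all 16 arrays, gave 0.83 and -0.83, and the mean of its probes gave 1.79. Gem read -4.41, -4.86, -3.39 and -3.64 in WT M0, -3.96, -4.41, -3.74 and -3.97 in KO M0, -3.74, -2.81, -4.14 and -2.94 in WT M1 and 1.92, 1.58, 2.33 and 1.43 in KO M1. The other 3 groups overlapped, and every KO M1 array was above them.

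Gained falls were led by Tmem51 (-3.30 ± 0.52), the linker histone gene Hist1h1c (-3.19 ± 0.42), Txnip (-3.17 ± 0.37), Pfkfb1 (-3.07 ± 0.89) and the adhesion receptor gene Adgre5 (-2.90 ± 0.38). A second probe of Adgre5, above background on all 16 arrays, fell by 1.27 in WT and 2.31 in KO, an interaction of -1.03. The mean of both gave -1.97, still called. Txnip encodes an arrestin-like protein that limits glucose uptake and whose transcription rises with intracellular glucose metabolites. It read 6.71, 7.33, 6.79 and 6.70 in WT M0, 6.33, 7.01, 6.46 and 6.11 in KO M0, 6.53, 6.73, 6.34 and 6.62 in WT M1 and 2.41, 3.76, 2.70 and 3.03 in KO M1. The highest KO M1 array was well below the lowest of the other 12. The probe lies at chr3:96365340-96365399 of mm9.

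Lost rises were smaller and included the MAP kinase inhibitor gene Spred2 (-2.75 ± 0.86), the histamine receptor gene Hrh1 (-2.50 ± 0.49), the inflammatory caspase gene Casp12 (-2.49 ± 0.37), Zbtb32 (-2.48 ± 0.67) and Radx (-2.42 ± 0.79). The calls of Spred2 and Radx were lost under 4 and 7 of 29 alternative settings, and the mean of the Spred2 probes gave -1.38. Casp12 read -1.29, -1.66, -1.53 and -1.57 in WT M1, and between -4.43 and -3.11 on all other arrays, KO M1 included. Lost falls included the short-chain fatty acid receptor gene Ffar2 (3.55 ± 0.79), Myc, a transcription factor of growth (3.45 ± 1.17, adjusted p = 0.038, limma), Ier5l (3.33 ± 0.51), the nucleotide receptor gene P2ry1 (3.27 ± 0.63) and the lamin gene Lmnb1 (3.18 ± 0.76). The call of Myc was lost under 11 of 29 alternative settings, at adjusted p up to 0.0775.

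Blunted rises were led by Arg1, the arginase that competes with nitric oxide synthase for arginine. Arg1 read 0.96, 0.68, 0.76 and 1.06 on WT M0 arrays, against -1.45, 0.88, -0.60 and -1.55 on KO M0 arrays. M1 values were 6.22, 5.89, 6.26 and 6.01 in WT and 0.36, 1.41, 1.71 and 0.72 in KO. It rose by 5.23 in WT and 1.73 in KO (interaction -3.50 ± 0.61, adjusted p = 0.00057, limma; -4.75 to -2.67 within sets), and the M1 groups did not overlap. The M0 value of KO replicate 2, of the fourth set, was the highest of its group. The other blunted rises were Dnmt3l (-3.19 ± 0.47), Lrrc4 (-3.12 ± 0.45), the lipid receptor gene Gpr18 (-3.00 ± 0.47) and Ly6a, the surface antigen Sca-1 (-2.69 ± 0.73). A dimmer probe of Dnmt3l gave -0.59, and the mean of its probes -1.89.

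Blunted falls were led by Cd28 (2.97 ± 0.41), the mannose receptor gene Mrc1 (2.78 ± 0.72), the proliferation marker Mki67 (2.76 ± 0.48), the cell cycle phosphatase gene Cdkn3 (2.76 ± 0.67) and Tmem176b (2.57 ± 0.52). Cd28, a costimulatory receptor gene, read 3.24, 3.35, 3.37 and 4.49 in WT M0, 3.78, 3.25, 3.47 and 3.53 in KO M0, -1.97, -1.64, -1.73 and -1.76 in WT M1 and 1.62, 0.98, 1.45 and 0.34 in KO M1. KO M1 arrays lay between the M0 and WT M1 arrays. A second probe of Cd28, above background in M0 only, gave 0.66, and the mean of both gave 1.82.

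**Figure D2:**
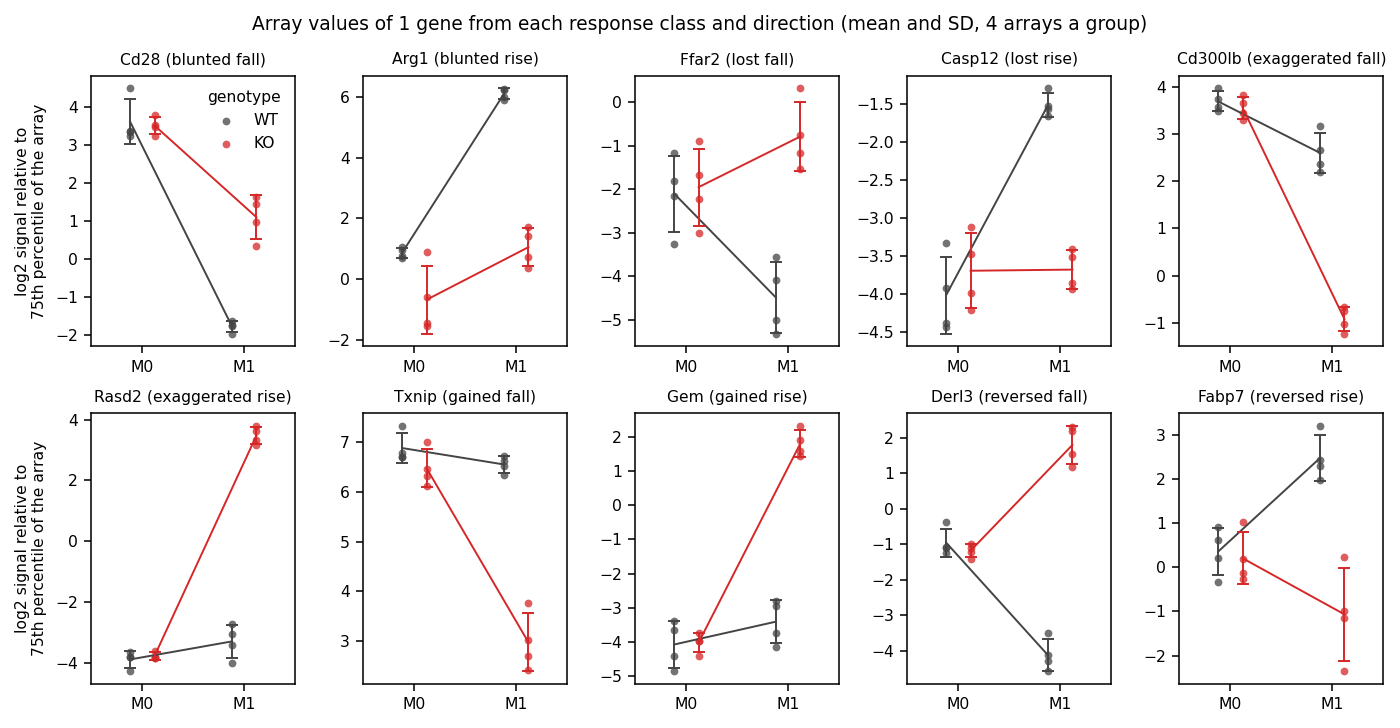
Log2 signal relative to the 75th percentile of the array (y axis) in M0 and M1 (x axis) for 1 gene of each response class and direction, with 1 point per array, WT in grey and KO in red; lines join group means and bars are SDs over 4 arrays. The genotypes lie apart in M1 and closer together in M0, where Arg1 reads 0.68 to 1.06 in WT and -1.55 to 0.88 in KO. The KO M1 points of Rasd2 lie between 3.17 and 3.80 against -4.01 to -2.72 in WT M1.

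Some genes passed the background mark of the image software on all 4 arrays of 1 group and on no array of the other 3. On the probe used this held for 19 genes in KO M1 and 12 in WT M1, of 25449 tested, and the M0 groups were not counted. Such genes passed the filter on dim probes through that 1 group alone. For 16 and 10 of these no probe of the gene passed the mark on any array of the other 3 groups. Among the named genes of this kind, those seen in KO M1 were the chemokine receptor gene Cxcr1, the collagen gene Col27a1 and the cell polarity gene Pard6b. A second probe of Col27a1 passed the mark on 1 of 4 KO M1 arrays. Cxcr1 read -1.97, -1.86, 0.42 and -1.19 in KO M1, and was at least 25.2-fold higher there than in WT M1. The bounds against WT M1 were at least 12.5-fold for Col27a1 and 10.6-fold for Pard6b. Each bound sets the group mean against the dimmest signal still well above background on the WT M1 arrays or the probe's own signal, whichever was higher. The lipid receptor gene Gpr55 was seen in WT M1 in the same way, on both of its probes, and was at least 3.95-fold higher there than in KO M1.

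The members of 24 gene lists of macrophage biology and 8 lists of markers of other cell types were counted against the shares over all genes (15.2% called higher in the KO response and 14.7% lower, median interaction 0.11).

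**Figure D3:**
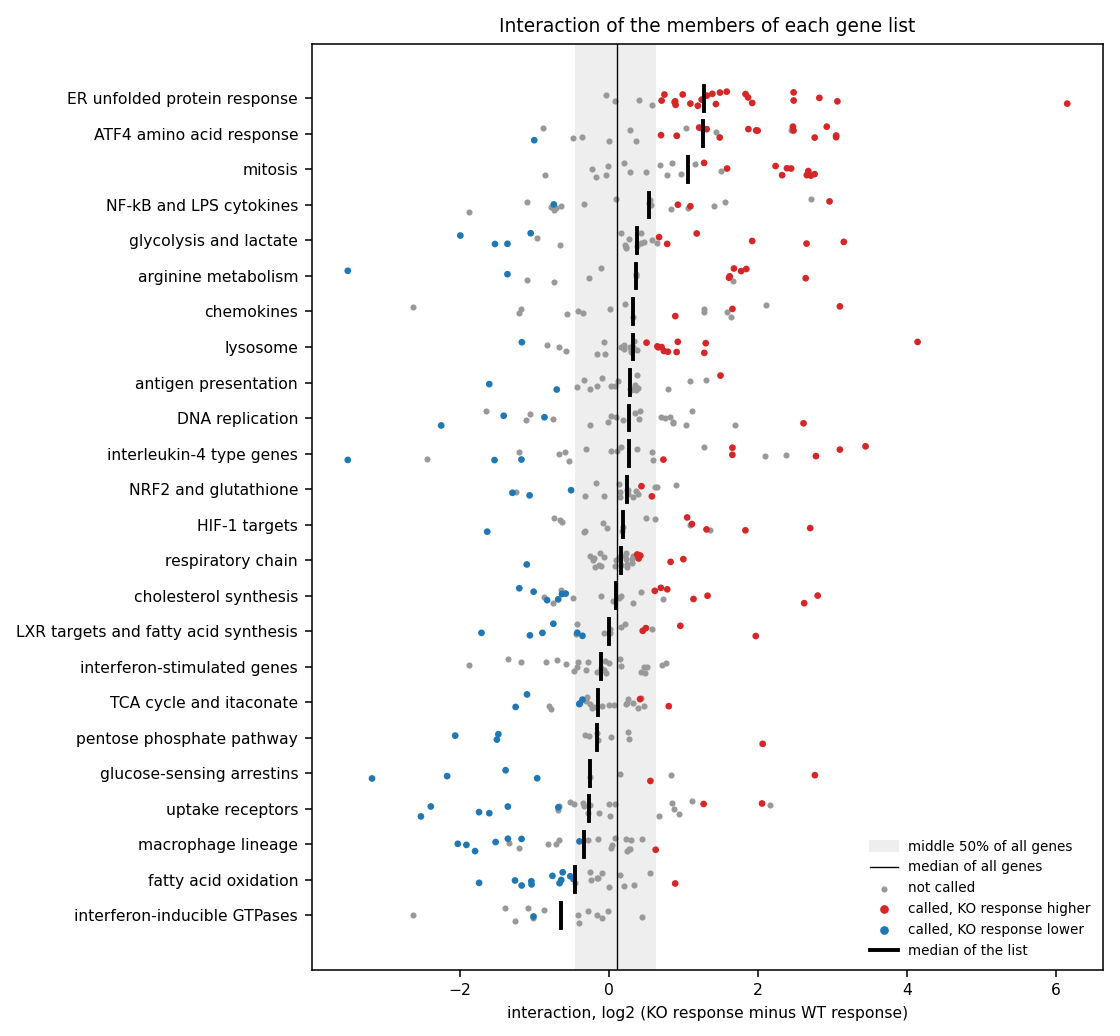
Interaction in log2 units (x axis) of every tested member of 24 gene lists (y axis), coloured where called (red higher, blue lower in the KO response), with a black bar at the median of the list; the grey band is the middle 50% of all genes. The unfolded protein response list lies almost wholly to the right of the band, whereas no interferon-stimulated gene is coloured.

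The unfolded protein response had the largest median of the 24 pathway lists. Of 26 genes tested, 22 were called higher in the KO response and 0 lower, with a median of 1.28. In WT 10 rose and 6 fell on M1 activation, whereas in KO 25 rose and 1 fell. Called members fell into the gained (9), exaggerated (8) and reversed (5) classes. The count was 22 without the fourth set, 16 after quantile normalization and 19 after median scaling, with 0 lower in each.

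Among sensors and transcription factors, Ern1, which encodes IRE1, had an interaction of 1.2 ± 0.22, Atf6 0.89 ± 0.19 and Xbp1 0.71 ± 0.16, all called. Eif2ak3, which encodes PERK, fell in both genotypes (by 1.27 in WT and by 1.18 in KO) and was not called (0.09 ± 0.17). Several chaperones and folding enzymes were called: Hspa5, the central lumenal chaperone BiP, rose by 0.50 in WT and 1.89 in KO, Hyou1 by 0.74 and 3.22, Hsp90b1 had values of -0.04 and 1.55, and Pdia4 of -0.22 and 1.70. Dnajb9, a BiP cochaperone, read 2.23, 2.48, 2.15 and 2.41 in WT M1 and 5.26, 4.66, 4.49 and 4.76 in KO M1, from 2.2 to 2.52 on all M0 arrays.

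The largest changes of the list were those of Derl3 and Herpud1, both of the degradation pathway. Its members Sel1l, Edem1, Syvn1 and Derl2 lay below the list median of 1.28. Beside Derl3, Herpud1, a membrane scaffold of the ubiquitin ligase complex, read 2.64, 3.21, 3.48 and 3.61 in WT M0, 3.09, 3.49, 3.41 and 3.23 in KO M0, 0.95, 1.29, 1.26 and 1.2 in WT M1 and 4.69, 4.04, 4.10 and 4.42 in KO M1. It fell by 2.06 in WT and rose by 1.01 in KO (interaction 3.07 ± 0.29, adjusted p = 4.5e-06, limma). Sdf2l1 (2.83 ± 0.45), Sel1l (0.99 ± 0.14), Edem1 (0.90 ± 0.31) and the ligase gene Syvn1 (0.75 ± 0.20) were called too. The members not called were Pdia3 (0.58 ± 0.25), Dnajb11 (0.41 ± 0.18), Eif2ak3 and Derl2 (-0.04 ± 0.15), so that Derl2 and Derl3, which belong to 1 family, differed.

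Many promoters of this pathway hold the endoplasmic reticulum stress element (ERSE), CCAAT followed by 9 bases and CCACG. It was searched on both strands in the 250 bases before the start of each gene (RefSeq, GRCm38.p6). It was found in 9 of the 18 called members of the list that the promoter table holds, in 0 of the 4 other members there, and in 37 of all 32851 promoters (0.113%). The sites of 5 members are shown to let the element be seen beside the values, 5′ to 3′ on the strand of the element with 5 bases on each side, the fixed letters in capitals.
Derl3: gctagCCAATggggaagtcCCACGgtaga
Creld2: gtggaCCAATtgaggctcgCCACGagaag
Hspa5: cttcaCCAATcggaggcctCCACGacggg
Dnajc3: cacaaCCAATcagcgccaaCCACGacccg
Syvn1: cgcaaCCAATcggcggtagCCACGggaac
The letters shown for Derl3 lie at chr10:75893237-75893265 on the strand opposite to the gene, and those for Hspa5 at chr2:34772020-34772048, flanks included. The 19-base match within them runs from base 156 to 138 before the start of Derl3 and from 65 to 47 before that of Hspa5. Hsp90b1 holds 2 matches.

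Taken by this element alone, irrespective of the list, 23 tested genes had a promoter with a match, of which 12 were called higher and 2 lower in the KO response. The 12 included 9 members of the list, with Ero1b (0.57 ± 0.19), an oxidase of the endoplasmic reticulum, and 2 Riken genes, of which 1700122E12Rik shares the site of its neighbour Calr. The 2 lower ones were Alg12 (-1.06 ± 0.21), which shares the site of the divergent gene Creld2 in the other orientation, and the acetyl-CoA carboxylase gene Acacb (-1.67 ± 0.34). Creld2 and Alg12 both rose in both genotypes, Creld2 by 0.83 in WT and 2.70 in KO and Alg12 by 1.57 in WT and 0.51 in KO, so the sign of the interaction differed and not that of the responses. A match is a description of letters, and the element was first described in promoters of such chaperone genes, so its presence in this list is no independent finding. Other elements were searched as well. A second one searched for this list, the UPRE core of 8 bases, was found in 0 of the 18 called members. The CARE element, searched for the ATF4 list below, was found in 2 of 13 called members and in 6 of 23 tested ones.

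**Figure D4:**
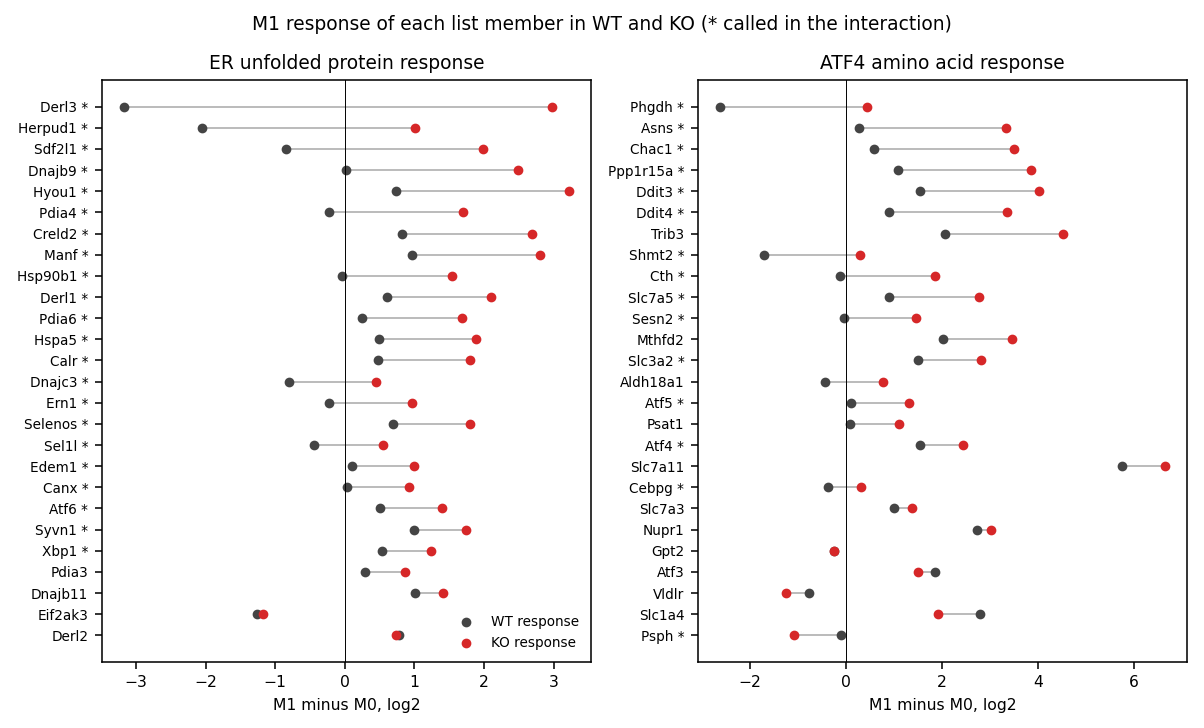
M1 minus M0 in log2 units (x axis) of each tested member (y axis, ordered by interaction) of the unfolded protein response list (left) and the ATF4 list (right), WT in grey and KO in red, with an asterisk where the interaction was called. In the left panel WT points lie around 0 and KO points at 1 to 3 for most genes; Derl3 has the longest line.

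The ATF4 list holds genes of amino acid supply, and of its 26 members 14 were called higher in the KO response and 1 lower (median 1.27; 16 and 1 without the fourth set). Transcription factors of the pathway included Atf4 (0.92 ± 0.32), Ddit3, which encodes CHOP (2.48 ± 0.47), Atf5 (1.21 ± 0.24) and Cebpg (0.70 ± 0.22), all called, and Atf3 (-0.36 ± 0.41), which was not. Ppp1r15a, which encodes the phosphatase subunit GADD34 that restores translation, read 3.56, 4.23, 2.96 and 4.02 in WT M1 and 6.53, 6.34, 6.18 and 6.60 in KO M1, with 2.14 to 3.01 on the M0 arrays.

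Enzymes of serine and asparagine synthesis and amino acid carriers rose in KO or lost their fall. Asns, the asparagine synthetase gene, read 2.77, 0.54, 2.74 and 2.61 in WT M0, 2.79, 0.84, 2.85 and 2.64 in KO M0, 2.32, 2.69, 1.86 and 2.91 in WT M1 and 5.94, 5.60, 5.41 and 5.49 in KO M1. M0 replicate 2 of both genotypes, in the fourth set, was low, and the interaction was 2.55 to 3.60 within sets. Phgdh, the first enzyme of serine synthesis, fell by 2.62 in WT and was at 0.43 in KO (3.05 ± 0.77), and Shmt2 had an interaction of 2.00 ± 0.41. Psph, the last enzyme of the same pathway, was the only member called lower (-1.0 ± 0.23). The carriers Slc7a5 (1.87 ± 0.49) and Slc3a2 (1.31 ± 0.24), which form 1 transporter, were both called, whereas the cystine carrier Slc7a11 rose by 5.75 in WT and 6.65 in KO and was not (0.90 ± 0.85).

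Genes of arginine and polyamine metabolism split. The cationic amino acid carriers Slc7a1 (2.64 ± 0.80) and Slc7a2 (1.62 ± 0.58) were called higher in the KO response. So were Oat (1.68 ± 0.21) and, on the polyamine branch, Odc1 (1.85 ± 0.36), Azin1 (1.78 ± 0.41) and Srm (1.62 ± 0.45). Arg1 and Gatm (-1.36 ± 0.33) were called lower. Nos2, the inducible nitric oxide synthase, rose by 10.17 in WT and 9.44 in KO, and its interaction of -0.73 ± 0.52 was not called. In all 6 of 15 members were called higher and 2 lower.

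The genes induced by interferon kept their rise in KO. All 25 interferon-stimulated genes tested rose in both genotypes, by 0.70 to 7.98 in WT and 0.63 to 7.03 in KO, and limma called 0 of them in the interaction in either direction; 1 was at an unadjusted p under 0.05, and limma with a trended prior called 0. Their interactions ran from -1.87 to 0.76 with a median SE of 0.67, so differences of the size seen in other lists could be missed in single genes. Irf1, an interferon regulatory factor, rose by 3.1 in WT and 3.26 in KO. Without the fourth set 1 gene was called higher and 1 lower. Of the 14 interferon-inducible GTPases, which act on vacuoles of pathogens, all rose in both genotypes and 1, Gbp10, was called (-1.01 ± 0.33, adjusted p = 0.031, limma), a call lost under 9 of 29 alternative settings. Estimates were below 0 for 13 of the 14 (median -0.64).

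Of 20 cytokines and regulators induced by LPS, 18 rose in WT and 19 in KO. Il12b, which encodes the p40 subunit of IL-12 and IL-23, read 2.62, 3.58, 2.51 and 3.66 in WT M1 and 6.51, 7.41 and 7.48 in KO M1, 1 array having an outlier spot that was left out. It rose by 8.04 in WT and 11 in KO (2.96 ± 0.53, adjusted p = 0.00085, limma). Tnfaip3, an inhibitor of NF-kB, and Il27 were called higher (1.1 ± 0.35 and 0.93 ± 0.32) and Nfkbia, the IkBα gene, lower (-0.73 ± 0.25), calls that were lost under 6, 14 and 14 of 29 alternative settings. Tnf (-1.09 ± 0.74), Il6 (2.72 ± 1.68), Il1b (-0.33 ± 1.52) and Il10 (-1.88 ± 0.78) were not called, with wide errors. Of 17 chemokines 3 were called higher, namely Ccl22, Ccl24 (1.66 ± 0.53) and Cxcl16 (0.89 ± 0.19), and 0 lower; without the fourth set 6 were called higher and 1 lower. Ccl22 passed the background mark on 4 KO M1 arrays, 2 WT M1 arrays and no M0 array, so its rises are bounds. The call of Ccl24 was lost under 7 of 29 alternative settings and that of Cxcl16 under 2, with a value of 0.39 after quantile normalization.

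Of 21 antigen presentation genes, 20 rose in each genotype. The class II activator gene Ciita was called higher (1.5 ± 0.51), a call lost under 13 of 29 alternative settings, and another of its probes gave 0.11. Lower calls were those of the peptide transporter gene Tap2 (-0.70 ± 0.21) and the costimulator gene Cd80 (-1.60 ± 0.26). On its brightest probe Cd80 fell in both genotypes, by 1.76 in WT and by 3.37 in KO. Its other probes, above background on all 16 arrays, changed by 0.89, -0.05 and 0.31 in WT, so its fall in WT rests on the probe used. Their interactions were -1.78, -1.65 and -1.66.

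Part of the mitosis list was called in the interaction, all in the higher direction. Of 24 mitosis genes 23 fell in WT and 22 in KO, by a median of 5.73 and 4.50, and 10 were called higher in the KO response and 0 lower, 9 of them blunted and 1 lost (median 1.07; 15 higher and 0 lower without the fourth set). Mki67 read 5.59, 4.29, 5.40 and 5.42 in WT M0, 5.61, 4.66, 5.48 and 5.65 in KO M0, -0.37, -0.15, 0.75 and -0.14 in WT M1 and 3.18, 2.60, 3.52 and 2.55 in KO M1. Cenpa, the centromeric histone, read 0.54, 0.76, 0.41 and 0.60 in WT M1 and 2.84, 3.56, 2.72 and 3.41 in KO M1, the latter overlapping the M0 range of 2.74 to 3.89. Nusap1, a spindle protein, fell by 7.78 in WT and by 5.06 in KO, and the cell cycle factor Foxm1 by 5.17 and 2.72. The interaction of Nusap1 was 1.68 with the normexp background correction. Cenpf passed the background mark on no WT M1 array and on 1 of 4 KO M1 arrays, so its falls are bounds, and its call was lost with that correction. The dimmest signal still well above background was -6.80 to -5.55 on WT M1 arrays and -6.07 to -4.97 on KO M1 arrays. The interaction of members that fell near these levels depends on this difference too, and its part in the counts was not tested.

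Genes of DNA replication fell in both genotypes (17 of 24 in WT and 18 in KO) and were called in both directions. Mcm2, a subunit of the replicative helicase, lost its fall (2.61 ± 0.58), while Gins1 (-2.25 ± 0.46), E2f1 (-1.41 ± 0.20) and Dnmt1 (-0.86 ± 0.30) were called lower, the call of Dnmt1 being lost under 16 of 29 alternative settings. The share called, 4 of 24, was below that of all genes.

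**Figure D5:**
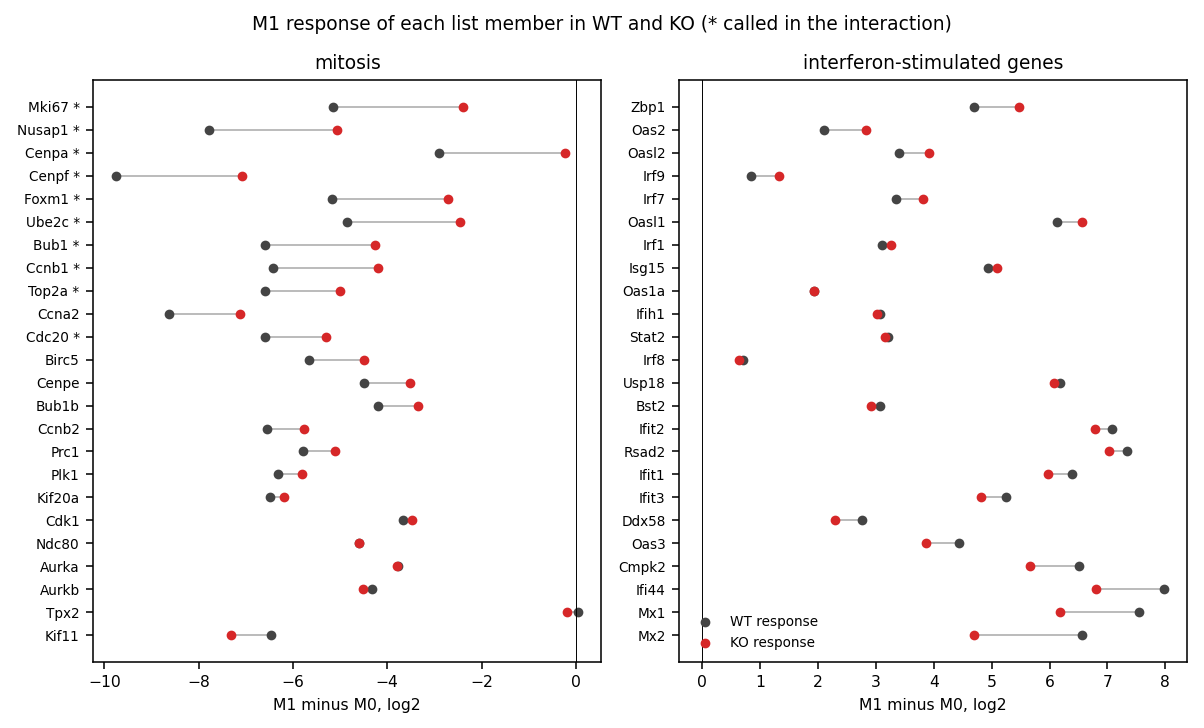
M1 minus M0 in log2 units (x axis) of each tested member (y axis, ordered by interaction) of the mitosis list (left) and of 24 of the 25 members of the interferon-stimulated list (right), WT in grey and KO in red, with an asterisk where the interaction was called. Red points lie to the right of grey ones at the top of the left panel, and on both sides of them in the right panel, where no gene has an asterisk.

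Among genes of glucose use, Slc2a1 itself rose in both genotypes on this probe, by 2.94 in WT and 3.53 in KO (0.58 ± 0.48, adjusted p = 0.42, limma). Whether the probe, from base 2501 of the transcript, lies in the deleted part was stated in no label or header, so its value does not check the genotype. Of 23 glycolysis and lactate genes 6 were called higher and 4 lower. Eno2, an enolase, read 0.15, 0.44, 0.04 and 0.28 in WT M1 and 3.83, 3.47, 3.56 and 3.37 in KO M1. Slc16a1, the lactate carrier MCT1, read 1.37, 1.24, 0.96 and 1.08 in WT M1 against 3.83, 3.58, 3.94 and 3.71. Both lacked a called rise in WT.

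Hexokinase genes Hk2 (1.93 ± 0.30) and Hk1 (1.18 ± 0.37) and the enzymes Pfkl (0.79 ± 0.23) and Aldoa (0.68 ± 0.16) were called higher. Aldoc (-1.99 ± 0.43), Pfkfb4 (-1.52 ± 0.27), Pfkm (-1.36 ± 0.29) and the lactate exporter Slc16a3 (-1.05 ± 0.37) were called lower. Isoforms of 1 step therefore differed in direction, as Pfkl and Pfkm, Aldoa and Aldoc, or Slc16a1 and Slc16a3. Gapdh (0.38 ± 0.18), Ldha (0.43 ± 0.16) and Pgk1 (0.22 ± 0.24) were not called.

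Arrestin-like genes of the family of Txnip were called in both directions. Beside Txnip, Arrdc3 (-2.17 ± 0.49), Arrdc2 (-1.38 ± 0.33) and Arrdc1 (-0.96 ± 0.14) were called lower and gained a fall, whereas Arrdc4, the closest relative of Txnip and a target of the same glucose-sensing factors, was called higher on its brightest probe (2.77 ± 0.40). On that probe Arrdc4 read 1.91, 2.08, 1.18 and 2.45 in WT M1 and 4.32, 4.22, 3.90 and 4.04 in KO M1, while its M0 range was 0.01 to 1.55. A second probe of Arrdc4, above background on all 16 arrays, rose by 1.71 in WT and 2.06 in KO, an interaction of 0.36, and the mean of both gave 1.56. Of the factors themselves, Mlxip (0.15 ± 0.31) and Mlx (0.83 ± 0.35) were not called, and Mlxipl was called (0.56 ± 0.19).

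On the pentose phosphate pathway, 1 of 11 genes was called higher and 3 lower. G6pdx, the entry enzyme glucose-6-phosphate dehydrogenase, read 6.57, 6.52, 6.67 and 6.41 in WT M1, 4.89, 5.26, 4.54 and 5.00 in KO M1, against 5.30 to 5.67 in M0. It rose by 0.98 in WT and fell by 0.50 in KO (-1.48 ± 0.19, adjusted p = 3.7e-05, limma). G6pd2 (-1.5 ± 0.26) is a near copy, and its probe may read G6pdx. Shpk, which phosphorylates sedoheptulose, gained a fall (-2.06 ± 0.25), and Prps1, which makes the ribose donor of nucleotides, lost its fall (2.07 ± 0.38).

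HIF-1 targets rose in both genotypes (15 of 19 in WT, 14 in KO), 5 were called higher and 1 lower. Vegfa, the endothelial growth factor, read 3.50, 4.29, 2.46 and 3.96 in WT M1 and 6.18, 6.26, 5.93 and 6.21 in KO M1 (2.70 ± 0.52). Adm (1.83 ± 0.43) and Hif1a itself (1.31 ± 0.34) were called higher, and the carbonic anhydrase gene Car9 gained a fall (-1.63 ± 0.26). The call of Hif1a was lost after quantile normalization (0.82) and with the mean of its probes. Bnip3 (-0.02 ± 0.27), P4ha1 (-0.08 ± 0.20) and Egln3 (0.62 ± 0.80) were not called.

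Fatty acid oxidation moved the other way: 11 of 23 genes were called lower in the KO response and 1 higher (median -0.44; 12 and 1 without the fourth set, 10 and 1 after quantile normalization). Cpt1a, which passes fatty acids to the mitochondrial import, read 5.47, 5.48, 5.36 and 5.32 in WT M1 and 4.01, 4.28, 4.11 and 4.03 in KO M1, with 4.28 to 4.95 in M0, and was reversed (-1.04 ± 0.15). Its partners Slc25a20 (-1.17 ± 0.16) and Cpt2 (-0.51 ± 0.13) and the oxidation enzymes Acaa2 (-1.74 ± 0.24), Acadm (-1.26 ± 0.13) and Hadh (-1.03 ± 0.26) were called lower. Etfa, the electron carrier subunit, was the only member called higher (0.89 ± 0.18), and Hadha (-0.14 ± 0.15) was not called.

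In the TCA cycle 5 of 24 genes were called lower, among them both succinyl-CoA ligase subunits Suclg2 (-1.25 ± 0.39) and Sucla2 (-1.09 ± 0.16), and 2 higher, Dld (0.81 ± 0.14) and Dlst (0.42 ± 0.12), which belong to the 2-oxoglutarate dehydrogenase step. Sucla2 takes the opposite sign, not called, when the mean of its probes is used, and Dlst was not called after quantile normalization (0.13) or median scaling. The call of Suclg2 was lost under 2 of 29 alternative settings. Acod1, which makes itaconate, rose by 8.88 in WT and 8.10 in KO and was not called. Of 27 respiratory chain genes 5 were called higher and 1 lower, but 2 higher and 6 lower after quantile normalization, so that no direction of that list held under both scalings. Ndufs8 (1.0 ± 0.17), Cox4i1 (0.83 ± 0.12) and Ndufa4 (-1.1 ± 0.21) had the largest interactions there.

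Cholesterol synthesis was called in both directions, 7 of 24 higher and 6 lower. Insig1, the sterol sensor that holds SREBP in the endoplasmic reticulum, was reversed, with -1.95, -1.68, -1.82 and -1.55 in WT M1 and 0.77, 0.56, 1.91 and 0.28 in KO M1 (2.80 ± 0.39). Mvd gained a rise (2.62 ± 0.23) and Fdft1 lost its fall (1.33 ± 0.25), while Dhcr7 (-1.2 ± 0.34), Pmvk (-1.01 ± 0.22) and Mvk (-0.68 ± 0.16) were called lower. Fatty acid synthase, Fasn, fell by 2.50 in WT and by 0.53 in KO (1.97 ± 0.23), and the oxysterol receptor gene Nr1h3 rose less in KO (-0.89 ± 0.25). Of 19 genes of that list 4 were called higher and 6 lower, and 1 and 6 after quantile normalization.

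Lysosome genes were called higher more often than lower, 11 against 1 of 27, but 7 against 4 after quantile normalization (12 against 1 without the fourth set). Atp6v0d2, a subunit of the proton pump, read 4.21, 4.92, 4.27 and 4.20 in WT M0, 4.00, 4.55, 4.18 and 4.02 in KO M0, 1.51, 2.11, 2.88 and 1.69 in WT M1 and 5.85, 5.92, 6.27 and 5.88 in KO M1 (4.14 ± 0.37, adjusted p = 3.7e-06, limma). The cholesterol exporter Npc1 (1.3 ± 0.19), the calcium channel Mcoln1 (1.28 ± 0.13) and the lysosomal transcription factor Tfeb (0.67 ± 0.17) were called too, and Gusb was the member called lower (-1.16 ± 0.17; 0.01 on its other probe). Among osteoclast genes, Atp6v0d2 and the integrin gene Itgb3 were called (4.09 ± 0.48), and the defining genes Acp5 (0.81 ± 0.74), Ctsk (-0.67 ± 0.52) and Nfatc1 (-0.60 ± 0.25) were not. A second probe of Itgb3, above background on all 16 arrays, rose by 2.09 in WT and 2.77 in KO, an interaction of 0.67, and the mean of both gave 2.38. The summed level of the 9 osteoclast genes was 5.94 to 6.93 on WT M1 arrays and 7.07 to 8.04 on KO M1 arrays, where it includes both called genes.

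Genes of the macrophage lineage were mostly lower where called: 7 of 24 lower and 1 higher (median -0.34; 9 and 0 after quantile normalization, 7 and 1 without the fourth set). Spi1, which encodes the lineage factor PU.1, rose by 1.06 in WT and was at -0.11 in KO (-1.17 ± 0.14). The transcription factor gene Maf gained a fall (-1.91 ± 0.41). Aif1 (-1.79 ± 0.43) and the efferocytosis receptor Mertk (-1.35 ± 0.39) lost their rise. Csf1r (0.04 ± 0.18), Adgre1 (0.09 ± 0.14), Itgam (-0.28 ± 0.23) and Cebpb (0.24 ± 0.17) were not called.

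Receptors of complement and uptake were called lower 6 times and higher 2 times of 26. C3ar1, the receptor of C3a, read 4.87, 4.35, 4.64 and 4.43 in WT M1 and 2.01, 2.35, 1.49 and 2.05 in KO M1, against 3.90 to 4.29 in M0 (-2.52 ± 0.24). The C5a receptor C5ar1, counted in the lineage list above, was called lower too (-2.02 ± 0.23). In the uptake list the scavenger receptors Msr1 (-1.74 ± 0.47) and Lrp1 (-1.60 ± 0.28) and the lectin Clec4n (-2.39 ± 0.67) were also called lower. The list held 2 higher and 10 lower calls after quantile normalization, and 3 and 5 without the fourth set. Tyro3, of the same receptor family as Mertk, gained a rise (2.06 ± 0.36), a call lost when the mean of its probes is used (0.92).

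Genes typical of IL-4 activation were called in both directions, 6 of 24 higher and 3 lower. Beside Myc, Ccl22 and Mrc1, Socs2 (1.66 ± 0.39) and the glucan receptor gene Clec7a (0.74 ± 0.14) were called higher, and Arg1, Socs1 (-1.53 ± 0.40) and Il4ra (-1.17 ± 0.29) lower. Retnla (0.11 ± 2.38) and Chil3 (2.38 ± 1.32) had SEs above 1 and were not called. Of 21 genes of the NRF2 response 2 were called higher and 3 lower, and 0 and 4 after quantile normalization. Gsr (-1.06 ± 0.27), Gpx1 (-1.29 ± 0.27) and Keap1 (-0.50 ± 0.15) were lower, and Hmox1 (0.14 ± 0.26) was not called.

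Markers of other cell types were counted in the same way. Of 15 neutrophil genes 1 was called, Ly6g, in the lower direction (-2.49 ± 0.87), a call lost under 16 of 29 alternative settings, and the median estimate was 1.60. Without the fourth set 1 was called higher and 0 lower, and after quantile normalization 0 were called. Their summed level ran from 6.31 to 8.40 in M0, from 4.73 to 6.82 in WT M1 and from 7.01 to 7.95 in KO M1, without overlap between the M1 groups. Of 7 mast cell and basophil genes 3 were called higher, Kit (2.32 ± 0.47), Gata2 (1.91 ± 0.66) and Fcer1a (0.69 ± 0.25). The call of Gata2 was lost under 15 and that of Fcer1a under 20 of 28 alternative settings, and Kit was at 1.02 with the normexp correction. Their summed level was -0.11 to 1.83 in WT M1 and 2.37 to 3.37 in KO M1. Of 9 dendritic cell genes 1 was called higher, Siglech (0.91 ± 0.27; not called after quantile normalization or median scaling), and Zbtb46 (-1.78 ± 0.42) and Batf3 (-2.06 ± 0.41) lower, and of 8 T and NK cell genes Lck alone was called (1.68 ± 0.34). Of the B cell (6), stromal (9) and erythroid (6) genes 0 were called by limma, with 2, 1 and 0 at an unadjusted p under 0.05, and limma with a trended prior called 0 in each. With the array set as a block 1 B cell gene was called, and 0 stromal and 0 erythroid genes. The part of other cell types in the results above was not tested.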

How the data were processed

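RNA of 16 one-colour Agilent arrays (4 per group) was compared. The deposited intensity values are the processed signal of the scanner text files, with Feature Extraction at version 10.7.3.1, per the file headers, while the submitters' processing notes name version 9.1. From these, log2 values minus the 75th percentile of each array were computed after leaving out control and outlier spots and averaging the spots of a probe. Probes well above background on at least 4 arrays were kept, each gene being read from its brightest probe. Names came from the RefSeq table of GRCm38.p6 for 59.9% of 56605 probes, and otherwise from the files. Probe positions are those of mm9 in the files.

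The interaction was fitted with limma 3.58.1 in R 4.3.3 over 25449 genes (residual df 12), adjusted by Benjamini-Hochberg with a threshold of 0.05. On simulated data with 25449 genes and independent noise, 31 of 100 changes of 1 log2 unit and 63 of 100 of 2 units were recovered, with 7 false calls. No other genes were changed there, whereas 29.8% of genes were called in the data. The Benjamini-Hochberg cutoff was therefore stricter in the simulation, and these shares do not measure recovery in the data. The members and gene lists were chosen with earlier results of these data known. Named genes were Slc2a1, Lyz2, the 5 largest interactions per class and direction among genes well above background on all 16 arrays with 1 sign in the 4 array sets, the 5 brightest genes seen in M1 of 1 genotype only on the probe used, and up to 4 called members per list. Of the genes seen in 1 genotype only, the text gives those with no probe past the mark in the other 3 groups and with a called interaction. Riken, Gm and LOC names and bare accessions were passed over. Other list members, and genes named for the stress element, were chosen after their values were seen. Alternatives covered scaling, background, filters, probes, blocks and left-out arrays. The series' table of processed values was not used here. Values of a few genes that the rule would name are not reported here.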

Additional observations from a re-analysis of the deposited data

Results flagged for a closer look

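The M1 response differed between genotypes, by the interaction term, for 7596 genes, and the genotype difference in M1 differed from that in M2 for 7707 genes, the M1 arrays being shared.

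Of the 590 groups of 4 arrays examined for the named genes, 40 (6.78%) had 1 array far from the other 3 by Dixon's criterion, which chance alone does in about 1 of 20 groups. The log2 value of each such array is given with that of the nearest array of its group. M0 replicate 2 held 10 of these in WT and 10 in KO, and KO M1 replicate 3 held 5, all arrays of the fourth set. The cause was not tested. On WT M0 replicate 2 this held for Mki67 at 4.29 (lowest; nearest 5.40), Txnip at 7.33 (highest; nearest 6.79) and Lmnb1 at 0.63 (lowest; nearest 3.07). The same array (WT M0 2) also held Phgdh at -1.01 (lowest; nearest 0.92), Asns at 0.54 (lowest; nearest 2.61), Slc7a1 at -0.02 (lowest; nearest 2.26) and Acaa2 at 4.93 (highest; nearest 4.70). The same array (WT M0 2) also held Eno2 at -0.18 (lowest; nearest 0.54), Atp6v0d2 at 4.92 (highest; nearest 4.27) and Cenpf at 1.16 (lowest; nearest 2.57). On KO M0 replicate 2 this held for Myc at -2.72 (lowest; nearest -0.50), Lmnb1 at 1.14 (lowest; nearest 2.89), Lyz2 at 6.33 (highest; nearest 4.72) and Asns at 0.84 (lowest; nearest 2.64). The same array (KO M0 2) also held Mid1ip1 at 4.41 (lowest; nearest 4.65), Slc7a1 at 0.36 (lowest; nearest 2.37), Odc1 at 1.23 (lowest; nearest 1.99) and Azin1 at 2.2 (lowest; nearest 3.11). The same array (KO M0 2) also held C5ar1 at 3.76 (lowest; nearest 4.21) and Cenpf at 1.35 (lowest; nearest 2.71). On KO M1 replicate 3 this held for Dcbld2 at 2.74 (lowest; nearest 3.66), Mgll at 5.67 (highest; nearest 4.16), Siglech at 5.96 (lowest; nearest 6.42) and Hk2 at 6.28 (highest; nearest 5.72). The same array (KO M1 3) also held Atp6v0d2 at 6.27 (highest; nearest 5.92). On WT M0 replicate 1 this held for Mrc1 at 5.59 (lowest; nearest 6.12), Fasn at 4.10 (highest; nearest 3.62) and Dhcr7 at 0.50 (highest; nearest 0.27). On WT M1 replicate 1 this held for P2ry1 at -3.57 (lowest; nearest -2.76), Aldoc at 2.50 (highest; nearest 1.97) and Tyro3 at -3.84 (highest; nearest -4.33). On KO M0 replicate 1 this held for Prr15 at -1.48 (highest; nearest -2.89) and Lck at -2.58 (highest; nearest -2.95). On WT M1 replicate 3 this held for Tnfaip3 at 3.38 (lowest; nearest 4.31). On WT M0 replicate 4 this held for Cd28 at 4.49 (highest; nearest 3.37). On KO M0 replicate 3 this held for Pfkfb1 at 3.42 (highest; nearest -0.09). On WT M1 replicate 4 this held for Radx at 1.12 (lowest; nearest 1.38). On WT M1 replicate 2 this held for Gpr55 at -3.57 (lowest; nearest -3.26). On KO M1 replicate 1 this held for Dnmt1 at 0.27 (highest; nearest 0.07). On WT M0 replicate 3 this held for Suclg2 at 0.94 (highest; nearest 0.73).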

How the results depend on the processing

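Over the alternatives other than a size limit, 6923 to 10164 genes were called, and of the called genes still tested 84.9% to 99.4% kept their call and sign. Quantile normalization left 812 reversed genes. With no filter on dim probes 6603 genes were called higher in KO, 5770 were gained and 9 differed in M0, and with probes well above background on all 16 arrays 4 differed in M0. With the array set as a block 793 genes were blunted. Without the fourth set 923 were blunted and 24 differed in M0. With an interaction of at least 1 in size 4612 genes were left, 2337 higher and 2275 lower, of which 280 were blunted, 622 lost, 1040 exaggerated and 1547 gained. Leaving out 1 array at a time gave 6923 to 7833 called genes, and 8 to 22 between the genotypes in M0. The interaction changed sign for Atp5b (-0.051, quantile normalization), Chrm3 (1.62, no filter on dim probes) and Sucla2 (0.64, mean of its probes), none of them called there, and the cause was not tested.

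Of 150 named genes 120 kept call and sign in every alternative run for them. Over 4286 pairs of gene and alternative, 199 lost the call, 9 gained it and 3 reversed. WT and KO arrays of 1 state with the same label number were in the same set. Between M0 and M1 this held for numbers 1 and 4 only. The correlation of deviations for the same number was -0.36 to 0.86 (median 0.23, against 0.09 for different numbers), and a replicate block called 8200 genes. For arrays of the same set it was 0.14 to 0.86 (median 0.29, against a median of -0.10 for arrays of different sets). The main fit had no term for the set. With the array set as a block 9576 genes were called, so some genes not called in the main fit were called there. The 4 arrays per group limit the precision. In simulated data with few changed genes 31 of 100 changes of 1 log2 unit were recovered, a share that need not hold where 29.8% of genes are called.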
